A study of Mus musculus with 8 samples.

Results

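Kupffer cells are the resident macrophages of the liver, and 10 genes that mark them were followed here in livers with and without Amacr. The genes were Clec4f, Vsig4, Timd4, Cd5l, Marco, Adgre1, C1qa, C1qb, C1qc and Csf1r, taken by name from a list of markers, and all 10 had a row among the 16492 probe sets tested. Each probe set stood for 1 gene and was identified by its Entrez gene number. The 4 wild-type and the 4 Amacr-/- livers came from male C57BL/6 mice aged 3 to 3.5 months, and the labels call the 4 arrays of each genotype biological replicates. The enzyme Amacr, alpha-methylacyl-CoA racemase, acts in the shortening of the bile acid side chain and in the breakdown of branched-chain fatty acids. How the allele was made, and whether the wild-type animals were littermates, is not given in the sources used here.

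Kupffer cells line the sinusoids, where they take up particles, bacteria, aged red cells and dead cells from the blood. Most arise before birth and renew themselves in place under signals from neighbouring endothelial and stellate cells, and their survival depends on the receptor Csf1r. When Kupffer cells are lost, monocytes from the blood can fill the niche and take on most of the same genes over time, with Timd4 among the slowest to appear. In whole liver most RNA comes from hepatocytes, so these markers report on a minority of the cells. In such bulk samples, fewer Kupffer cells and less RNA of these genes per cell cannot be told apart.

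Promoter windows of the markers are shown as a description. The factor PU.1 (gene Spi1), which macrophages need, binds sites with the core GAGGAA. Whether such sites had a part in the marker values was not tested. RefSeq windows of 300 bases (GRCm38.p6, 250 bases before to 50 after the gene start) were searched for 7 of the 10 markers. These were Clec4f, Vsig4, Timd4, Cd5l, Marco, C1qb and C1qc. The windows of a pair of C1q chains, of Cd5l and of Vsig4 follow, 5′ to 3′ on the strand of the gene, with each GAGGAA, read on either strand, in capitals.
C1qb (chr4:136886151-136886450, minus strand): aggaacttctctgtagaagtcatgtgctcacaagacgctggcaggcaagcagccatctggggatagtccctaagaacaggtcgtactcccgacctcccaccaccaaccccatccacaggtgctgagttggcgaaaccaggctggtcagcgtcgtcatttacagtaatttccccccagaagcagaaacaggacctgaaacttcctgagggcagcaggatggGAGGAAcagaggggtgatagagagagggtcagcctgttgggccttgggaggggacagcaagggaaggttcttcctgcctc
C1qc (chr4:136892865-136893164, minus strand): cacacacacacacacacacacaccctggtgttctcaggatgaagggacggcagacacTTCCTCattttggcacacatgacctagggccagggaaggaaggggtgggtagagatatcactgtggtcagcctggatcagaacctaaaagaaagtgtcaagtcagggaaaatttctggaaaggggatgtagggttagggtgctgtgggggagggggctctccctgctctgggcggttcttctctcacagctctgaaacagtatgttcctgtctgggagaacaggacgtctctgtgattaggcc
Cd5l (chr3:87357631-87357930, plus strand): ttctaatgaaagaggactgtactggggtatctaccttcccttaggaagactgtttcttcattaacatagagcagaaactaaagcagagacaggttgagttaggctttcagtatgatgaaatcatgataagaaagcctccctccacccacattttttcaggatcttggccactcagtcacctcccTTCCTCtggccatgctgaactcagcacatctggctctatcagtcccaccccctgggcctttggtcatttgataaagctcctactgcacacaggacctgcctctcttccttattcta
Vsig4 (chrX:96293389-96293688, minus strand): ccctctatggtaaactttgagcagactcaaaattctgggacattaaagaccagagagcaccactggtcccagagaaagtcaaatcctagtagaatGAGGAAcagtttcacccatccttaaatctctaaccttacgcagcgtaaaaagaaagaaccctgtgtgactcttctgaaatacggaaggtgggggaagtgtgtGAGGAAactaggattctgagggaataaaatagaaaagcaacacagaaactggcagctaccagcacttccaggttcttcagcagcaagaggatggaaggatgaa

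Of the 7 windows, 5 held GAGGAA on at least 1 strand (Marco, Cd5l, C1qb, C1qc and Vsig4), as did 28.3% of 32851 mouse windows of the same length. The longer form GAGGAAGT, which contains it, was in the C1qc window alone among the 7 and in 3.2% of all. In Vsig4 the letters occurred in 2 places, of which the nearer began 53 bases before the gene start, and in C1qb they began 30 bases before it. TGCTGA, one side of the site bound by MAF factors, was in 5 of the 7 windows (Cd5l, C1qb, Clec4f, Timd4 and Vsig4) and in 19.5% of all. The AP-1 site TGACTCA (5.2% of all) was in 0 of the 7. Both strands were searched throughout, and these matches describe letters in a window and not binding. C1qa and Adgre1 had no window at hand, and Csf1r was left out of the search. The counts therefore say nothing about those markers.

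The values are log2 signals made with RMA, which gives 1 value per probe set and array. The array medians lay between 6.62 and 6.66, and the median standard error of a genotype difference over all probe sets was 0.09. The targeted gene went with the labels: the Amacr signal was 11.68 to 12.06 in wild type and 5.23 to 5.52 in knockout, which gave a difference of -6.55 on the log2 scale (SE 0.10, adjusted p = 4.91e-09 in limma). All 10 measured hepatocyte markers, among them Alb and Apoa1, had mean signals at or above percentile 94.9 of all probe sets. Knockout replicate 2 stood apart, with an array quality weight of 0.2998 against 0.9349 to 1.753 elsewhere, and at -34.47 on the first principal component, where knockout replicates 3 and 4 lay at 23.25 and 19.2 and the other 5 arrays between -6.366 and 2.558. Results are therefore also given without that array.

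None of the 10 Kupffer cell markers was called different between genotypes after adjustment over all probe sets, although all 10 had lower means in knockout. In limma, with p-values adjusted over all probe sets and a threshold of 0.05, 0 of 10 passed, against 0.115% of all probe sets (19 of 16492). At an unadjusted p under 0.05 and lower in knockout the count was 1, Marco, against 5.63% of all probe sets. An exact permutation test adjusted over all probe sets called 0, but with so few arrays it could call no probe set at all. The unadjusted count depended on single livers. It was 5 once knockout replicate 1 was left out and 2 for wild-type replicate 2. It was 1 for wild-type replicate 1 and 0 for each of the other 5. The share of 5.63% belongs to the fit on all arrays, and no such share was counted in these refits. Whether a count of 5 is particular to the markers therefore cannot be read from them. The log2 differences ran from -1.13 for Marco to -0.24 for Vsig4, with a median of -0.38, or 1.30-fold, and limma adjusted p from 0.425 to 0.761. Over all probe sets the median difference was 0.02 and 43.8% had a lower mean in knockout. The groups overlapped for every marker, whereas for 3.25% of all probe sets the knockout values lay wholly below those of wild type.

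Single livers differed widely within both genotypes. The range among the 4 wild-type arrays was larger than the difference between genotypes for 10 of 10 markers, and so was the range among the 4 knockout arrays. How many of all probe sets met this was not counted, so it cannot be read as particular to the markers. The median SD of a marker was 0.40 in wild type and 0.61 in knockout, against 0.11 and 0.14 over all probe sets. The SD was larger in knockout for 9 of the 10, all but Marco, as it was for 66.6% of all probe sets. The interval of the Vsig4 difference, -0.84 to 0.35, allowed anything from a 1.79-fold lower to a 1.28-fold higher signal in knockout. For Cd5l the interval, -1.31 to 0.25, was wider still on the lower side.

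**Figure D1:**
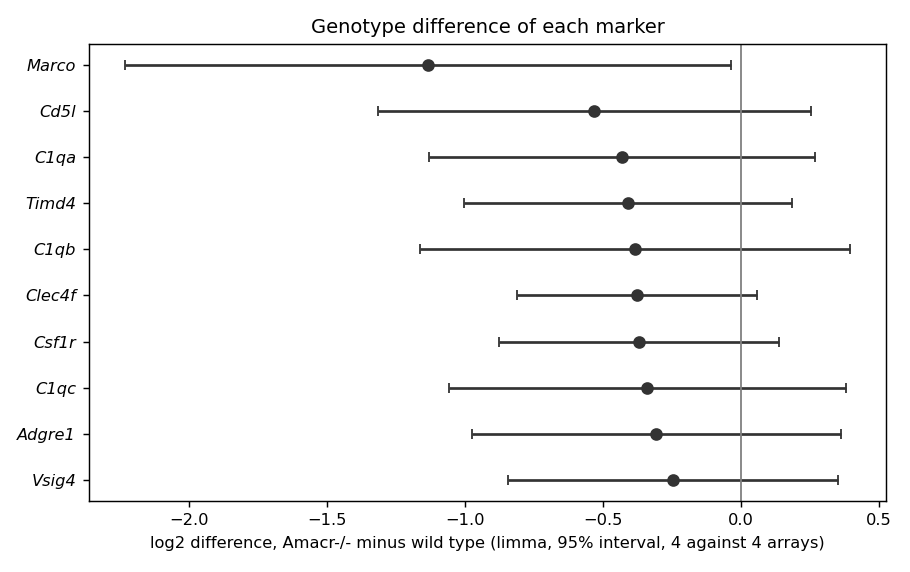
Log2 difference between knockout and wild type (horizontal axis, knockout minus wild type) for each of the 10 markers, with the 95% confidence interval of the limma fit on 4 against 4 arrays, before any adjustment for the number of probe sets. All 10 points lie below 0, from -1.13 for Marco to -0.24 for Vsig4, and all intervals but that of Marco cross 0.

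The first group of markers are surface receptors by which Kupffer cells catch material from the blood. Clec4f, a C-type lectin that in the mouse marks Kupffer cells almost alone, was 10.05, 9.78, 9.97 and 10.27 in the wild-type livers 1 to 4 and 10.12, 9.84, 9.36 and 9.25 in the knockout livers 1 to 4, a number here being that of the replicate. Knockout replicates 1 and 2 lay inside the wild-type range and replicates 3 and 4 below it. The means were 10.02 ± 0.20 and 9.64 ± 0.41 (SD, n = 4 each), with a difference between them of -0.38 (SE 0.19, limma adjusted p = 0.503). Vsig4, the complement receptor that binds bacteria coated with C3 fragments, was 10.16, 9.56, 9.98 and 10.08 in wild type and 10.29, 10.02, 9.51 and 8.98 in knockout. Its highest value of all 8 arrays was thus in knockout replicate 1 and its lowest in knockout replicate 4. The difference in means, -0.24 (SE 0.26, limma adjusted p = 0.761), was the closest to 0 of the 10.

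Marco, a class A scavenger receptor for bacteria and particles, varied most. It was 6.81, 6.17, 8.06 and 8.30 in the wild-type livers and 6.99, 6.38, 5.81 and 5.63 in the knockout livers. The wild-type livers themselves spanned 2.13 log2 units, and knockout replicates 1 and 2 lay within that span. The means of 7.34 ± 1.01 and 6.20 ± 0.61 (SD, n = 4 each) differed by -1.13 (SE 0.49, limma adjusted p = 0.425), or 2.19-fold, and the 95% interval ran from -2.23 to -0.04. With single livers left out the difference ran from -0.81 without wild-type replicate 4 to -1.52 without wild-type replicate 2.

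Timd4, a receptor for phosphatidylserine on dying cells and a marker of Kupffer cells of embryonic origin, was 6.93, 6.29, 6.93 and 7.37 in wild type and 7.11, 6.35, 6.39 and 6.04 in knockout. Here wild-type replicate 2 was lower than 3 of the 4 knockout arrays. The difference was -0.41 (SE 0.26, limma adjusted p = 0.593), with an SD of 0.44 in the wild-type group and 0.45 in the knockout group. Adgre1, which encodes the surface antigen most used to stain mouse macrophages, was 8.05, 7.57, 8.32 and 8.41 in wild type and 8.26, 8.28, 7.58 and 7.01 in knockout. Only knockout replicate 4 lay below the wild-type range, and the difference was -0.30 (SE 0.30, limma adjusted p = 0.729).

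Csf1r, the receptor for the growth factors CSF1 and IL-34, was 10.07, 9.77, 10.08 and 10.53 in the wild-type livers and 10.20, 9.94, 9.66 and 9.18 in the knockout livers. Replicates 3 and 4 of the knockout were below all of wild type, and replicates 1 and 2 were not. The difference was -0.37 (SE 0.22, limma adjusted p = 0.570). Its ligand Csf1 differed by -0.12 (SE 0.07, limma adjusted p = 0.576), at 6.86 to 7.13 in wild type and 6.83 to 6.94 in knockout. Neither the receptor nor Csf1 passed the threshold.

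The second group are secreted products of macrophages. Cd5l, also called AIM, circulates with IgM and promotes macrophage survival. It was 11.12, 10.59, 11.22 and 11.61 in the wild-type livers and 11.35, 11.06, 10.25 and 9.76 in the knockout livers. The 2 knockout arrays with low values lay beneath all wild-type arrays and the other 2 inside their range. With means of 11.14 ± 0.42 and 10.61 ± 0.73 (SD, n = 4 each), the difference was -0.53 (SE 0.35, limma adjusted p = 0.595).

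C1qa, C1qb and C1qc encode the chains that together form C1q, which starts the classical complement pathway by binding antibody complexes and dying cells. The 3 genes are neighbours on chromosome 4, with 0 other genes starting between them in the RefSeq table. C1qa was 9.97, 9.49, 9.92 and 10.37 in wild type and 9.96, 10.12, 9.25 and 8.70 in knockout. C1qb followed with 10.08, 9.45, 10.14 and 10.67 in wild type and 10.24, 10.27, 9.41 and 8.89 in knockout. For both, knockout replicates 1 and 2 lay inside the wild-type range and replicates 3 and 4 below it. C1qc was 9.63, 9.20, 9.69 and 10.22 in wild type and 9.81, 9.96, 9.03 and 8.59 in knockout, with the same order of high and low arrays in the knockout as C1qa and C1qb. The differences were -0.43 (SE 0.31) for C1qa, -0.38 (SE 0.34) for C1qb and -0.34 (SE 0.32) for C1qc, with limma adjusted p of 0.629, 0.706 and 0.720.

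The chains kept close to each other within an array. C1qa minus C1qc stayed between 0.11 and 0.34 across the 8 arrays, a range of 0.23. The range was 0.20 for C1qb minus C1qc and 0.34 for C1qa minus C1qb, from -0.30 to 0.04. Over the same arrays each chain alone spanned more than 1 log2 unit between wild-type replicate 4 and knockout replicate 4. Since the probe sets differ in how brightly they hybridise, only the movement of these differences can be read and not their size.

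**Figure D2:**
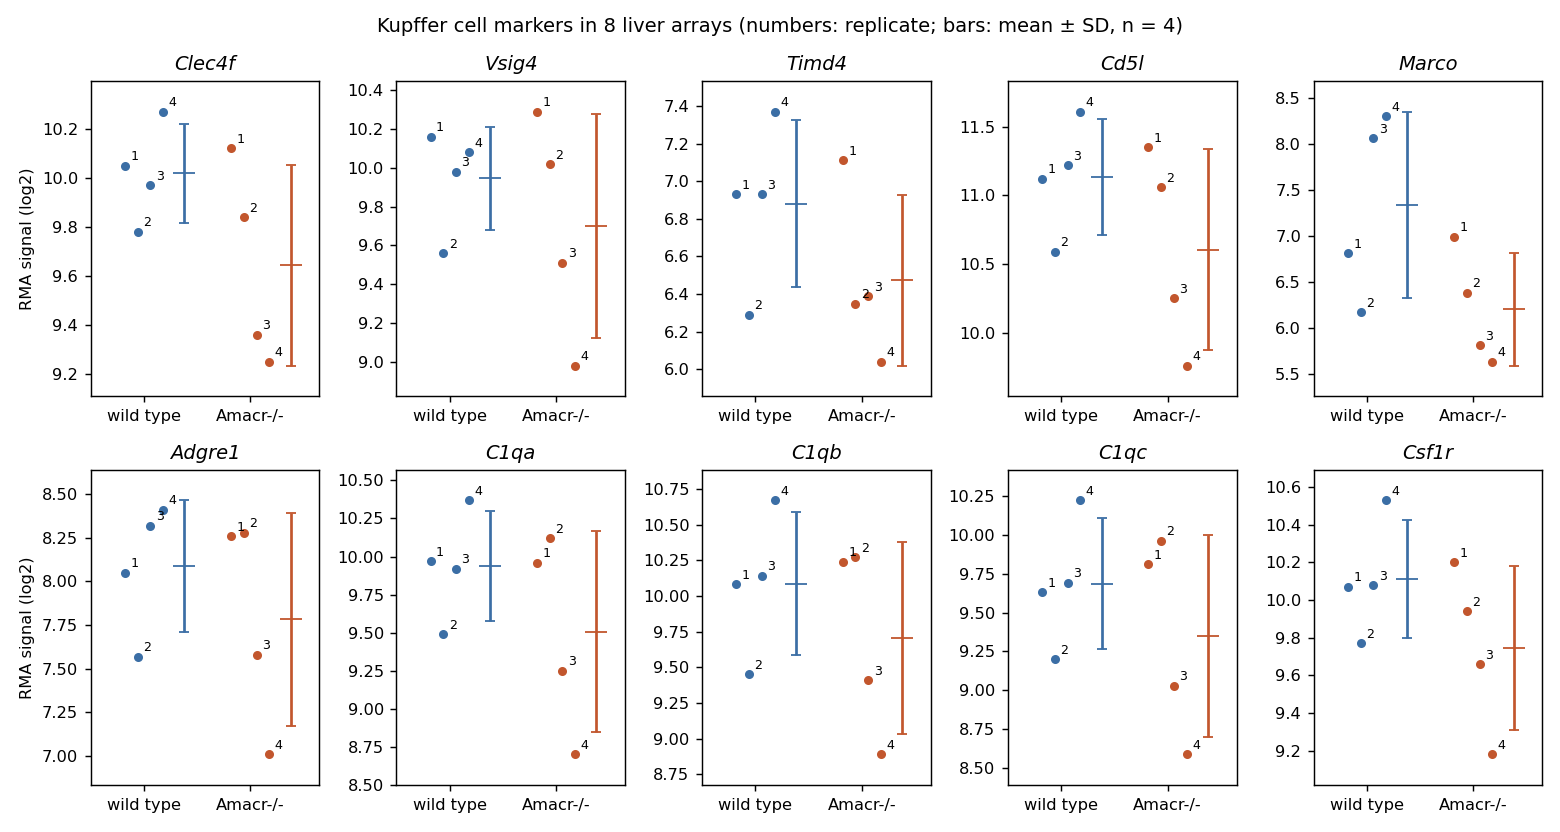
RMA signal (log2, vertical axis) of the 10 markers in each of 4 wild-type (blue) and 4 Amacr-/- (orange) livers, with the replicate number beside each point and the mean ± SD of each group to its right. Vertical scales differ between panels and do not start at 0. In every panel knockout replicate 4 is the lowest array and wild-type replicate 2 the lowest of wild type.

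The same livers stood at the top and at the bottom for most of the markers. Knockout replicate 4 had the lowest of the 8 values for 10 of 10 markers, as it did for 11.7% of all probe sets, and knockout replicates 3 and 4 held the 2 lowest values for 8 of 10, as for 8.81% of all probe sets. Wild-type replicate 4 had the highest value for 9 of 10, against 9.98% of all probe sets, and the exception was Vsig4. Within wild type, replicate 2 was lowest for all 10. Knockout replicate 2 was inside the wild-type range for 10 of 10 markers and knockout replicate 1 for 9 of 10, so that every knockout value below the wild-type range was one of replicates 3 and 4.

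Averaged over the 10 markers, the deviation from the wild-type mean was -0.04, -0.54, 0.11 and 0.46 in the wild-type livers and 0.11, -0.10, -0.70 and -1.12 in the knockout livers. The wild-type livers thus spanned 1.00 and the knockout livers 1.23 log2 units, against a difference between the groups of -0.45. In knockout replicate 4 the signal was lower than the wild-type mean by a factor from 1.70 for Clec4f to 3.26 for Marco, with 2.59 for Cd5l, 2.36 for C1qa and 1.91 for Csf1r. Between wild-type replicate 4 and knockout replicate 4 the factor ran from 2.03 for Clec4f to 6.36 for Marco. Both extremes belong to single animals, and no error can be attached to them.

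**Figure D3:**
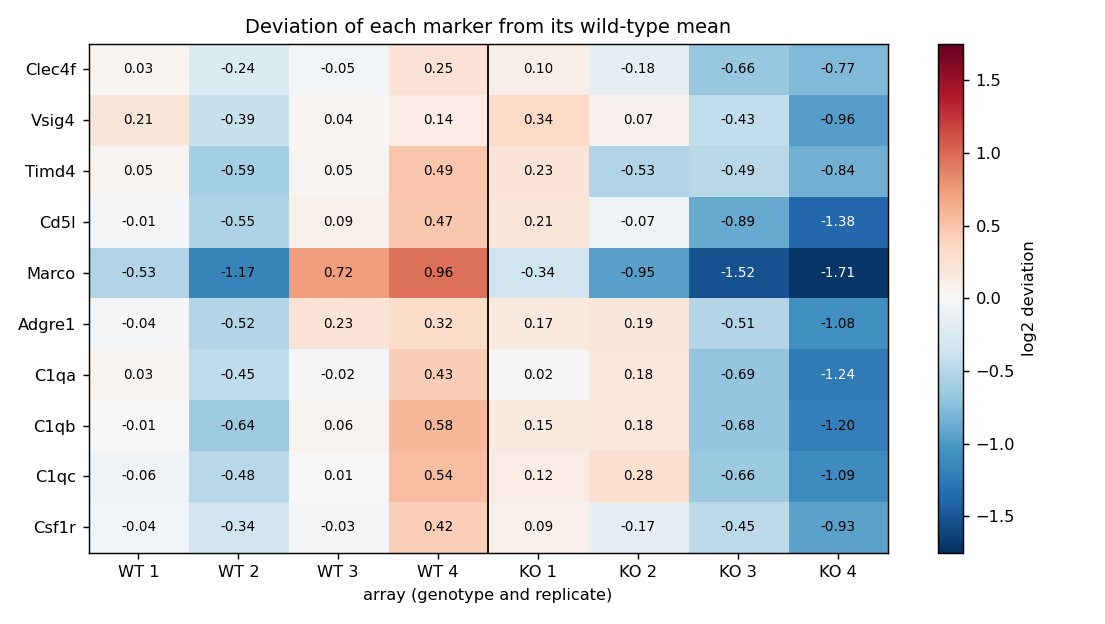
Deviation of each of the 10 markers (rows) from its own wild-type mean, on the log2 scale, in each of the 8 arrays (columns, WT wild type, KO Amacr-/-), with the value printed in each cell and a line between the genotypes. Knockout replicates 3 and 4 are below 0 for all 10 markers, as is wild-type replicate 2, and wild-type replicate 4 is above 0 for all 10.

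As a description of how alike the markers were, Pearson's r over the 8 arrays was computed for the 45 pairs, which share RNA and array. It ran from 0.68 for Vsig4 with Marco to 0.99 for C1qb with C1qc, with a median of 0.92, and exceeded 0.9 in 28 pairs. Against the mean of the other 9, Cd5l was the closest marker (r = 0.99), and Marco (r = 0.84) and Timd4 (r = 0.89) were the least alike. Marco and Timd4 were also the dimmest markers, with mean signals at percentiles 51.9 and 50.4 of all probe sets. The rest lay at percentiles 70.9 to 95.1. What part the dim signal had in their lower likeness was not tested. Part of the distance of Marco and Timd4 lay in knockout replicate 2, where they deviated by -0.95 and -0.53 while the C1q chains were 0.18 to 0.28 above their wild-type means.

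The named genes outside the list whose 8 values most resembled the mean of the markers were Sdc3 (r = 0.98), Aif1 (r = 0.97), Ctsc (r = 0.97), Pilra (r = 0.96), Ccl6 (r = 0.96), Treml4 (r = 0.95), Svs6 (r = 0.95) and Nckap1l (r = 0.95), the 8 highest of 15257 genes. Aif1 encodes IBA1, a protein used to stain macrophages, and Ctsc is a lysosomal protease abundant in myeloid cells. The Ctsc signal was 10.70 to 11.54 in wild type and 11.25, 11.00, 10.38 and 10.22 in knockout replicates 1 to 4. Svs6, a seminal vesicle gene, had signals between 3.07 and 3.52 in all 8 livers. None of the 8 passed the threshold, and their log2 differences lay between -0.61 for Aif1 and -0.11 for Svs6.

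Other macrophage genes were measured for comparison. Of 15 transcription factors and further genes of Kupffer cells, 0 passed in either direction, 12 had lower means in knockout and the median difference was -0.18. By the smallest limma p these were led by Clec1b, a lectin receptor (-0.31, SE 0.17), Folr2, a folate receptor (-0.33, SE 0.20), and Nr1h3, which encodes liver X receptor alpha (-0.12, SE 0.08), with adjusted p from 0.519 to 0.614. In knockout replicates 3 and 4 they deviated on average by -0.30 and -0.42, against -0.16 to 0.13 elsewhere, and 10 of the 15 had their lowest value in knockout replicate 4. Among 18 genes shared by macrophages at large, 0 passed, 16 had lower means and the median was -0.26. Their mean deviation was -0.50 and -0.61 in knockout replicates 3 and 4, and 0.44 in wild-type replicate 4.

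Some macrophage genes had another order of livers. Mertk, a receptor for engulfing dying cells that Kupffer cells carry, was 6.19, 6.82, 6.78 and 6.83 in wild type and 5.83, 6.14, 6.34 and 6.01 in knockout (difference -0.58, SE 0.16, limma adjusted p = 0.231). All knockout livers but replicate 3 lay below the lowest wild-type value. Cd163, the haemoglobin scavenger receptor, was 8.22 in knockout replicate 3 and 6.76 in knockout replicate 2, with 7.69 to 8.22 in wild type (difference -0.48, SE 0.27, adjusted p = 0.534). Over the 8 arrays, r with the mean of the markers was 0.28 for Mertk and -0.03 for Cd163.

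Genes of monocytes recruited from the blood, and of macrophages derived from them, were also read. Of 10 measured, 0 passed, 4 had lower means and the median difference was 0.05. The mean level of the list was 5.59 to 5.94 in wild type and 5.46 to 5.90 in knockout, with deviations of -0.24 in knockout replicate 3 and 0.01 in replicate 4. Itgam, an integrin of myeloid cells, differed by -0.30 (SE 0.11, limma adjusted p = 0.365). In this list it alone had all knockout values below those of wild type, as did 3.25% of all probe sets. Vcan and Cx3cr1 differed by 0.08 and 0.10. Of 13 macrophage cytokines and chemokines 0 passed, with a median of -0.08. The smallest p among them were those of Ccl4 (0.27, SE 0.10), Ccl6 (-0.26, SE 0.16) and Il6 (-0.12, SE 0.09), with adjusted p from 0.354 to 0.649.

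Proteases and regulators of the classical complement pathway that C1q starts, which hepatocytes make for the most part, were also compared. Of 5 measured, 0 passed and all 5 had lower means, with a median of -0.22. C1s1 differed by -0.24 (SE 0.11), C1ra by -0.26 (SE 0.12) and Serping1, the C1 inhibitor, by -0.17 (SE 0.10), with limma adjusted p from 0.443 to 0.547. Unlike the C1q chains, these genes were also low in knockout replicate 2, where the list deviated by -0.29, as it did by -0.28 in replicate 3 and -0.20 in replicate 4.

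Markers of other cells of the sinusoid and of the immune system were measured in the same arrays. Of 15 sinusoidal endothelial markers 0 passed, the median was 0.02, and the mean level was 7.99 to 8.42 in wild type and 8.16 to 8.34 in knockout. They deviated by -0.10 in knockout replicate 3, 0.03 in replicate 4 and -0.26 in wild-type replicate 4. The lowest p were those of Clec4g (-0.43, SE 0.26), Dnase1l3 (0.56, SE 0.35) and Oit3 (0.19, SE 0.15), with limma adjusted p from 0.562 to 0.653. Dnase1l3 was higher in knockout replicates 3 and 4, at 7.96 and 8.36, than in the other 6 arrays, at 6.60 to 7.07. Of 12 genes of dendritic cells and MHC class II 0 passed, with a median of 0.08 and Cd209a (0.19, SE 0.10), Xcr1 (0.15, SE 0.09) and Flt3 (0.09, SE 0.08) foremost (adjusted p from 0.518 to 0.701). That list stood at 0.81 in wild-type replicate 4 but at 0.14 and -0.18 in knockout replicates 3 and 4. Of 5 B cell markers 0 passed and 3 had lower means (median -0.06), with mean deviations of 0.52 in wild-type replicate 4 and of -0.56 and -0.79 in knockout replicates 3 and 4. Jchain, a plasma cell gene, carried most of this, since the other 4 genes deviated on average by 0.14 in wild-type replicate 4 and by -0.04 and -0.18 in knockout replicates 3 and 4, a setting added after the values were seen. The part of these cells in the marker values was not tested.

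The mean of the interferon response genes was highest in wild-type replicate 4 and lowest in knockout replicates 3 and 4, the livers at the ends of the order of the Kupffer cell markers. Of the single genes, 9 of 13 were highest in wild-type replicate 4 and 7 of 13 lowest in knockout replicate 4, against 9.98% and 11.7% of all probe sets. None of the 13 passed in limma, 10 had lower means and the median difference was -0.56. Their mean level was 7.66 to 8.58 in wild type and 6.96 to 8.06 in knockout, with a mean deviation of 0.65 in wild-type replicate 4 and of -0.97 and -0.85 in knockout replicates 3 and 4. The lowest p belonged to Rtp4 (-0.58, SE 0.21), Usp18 (-0.86, SE 0.34) and Oasl2 (-0.79, SE 0.32), with limma adjusted p from 0.356 to 0.404. In wild-type replicate 2, where the markers deviated by -0.54, these genes deviated by -0.27, near the -0.19 of wild-type replicates 1 and 3. What part the interferon response or the number of macrophages had in the other's values was not tested.

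**Figure D4:**
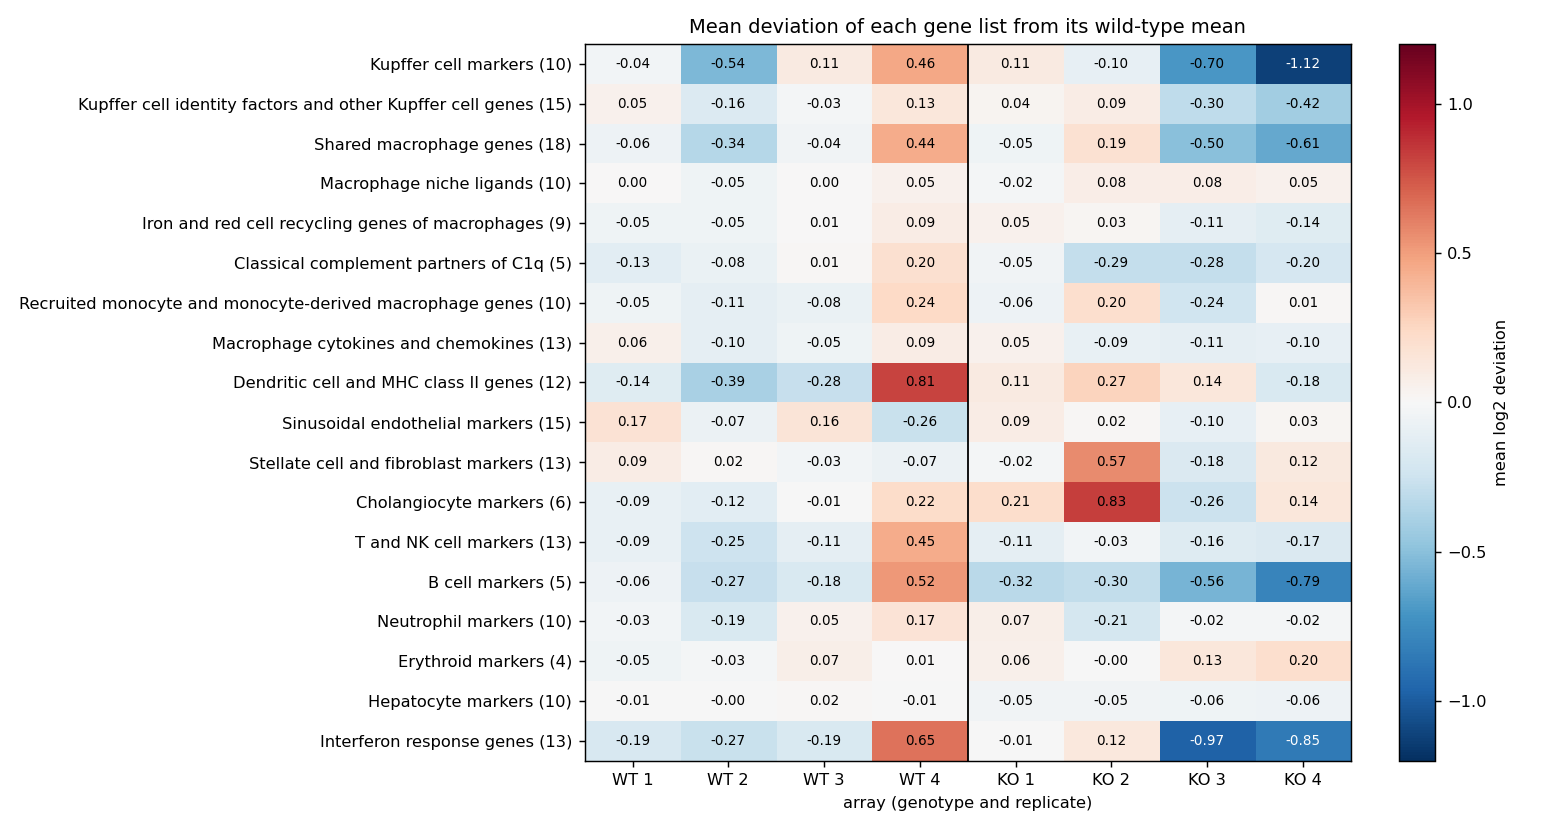
Mean deviation of each gene list (rows, with the number of genes measured) from its wild-type mean, on the log2 scale, in the 8 arrays (columns, WT wild type, KO Amacr-/-). The Kupffer cell markers reach -1.12 in knockout replicate 4, the shared macrophage genes -0.61 and the interferon response genes -0.85, while the sinusoidal endothelial markers stand at 0.03 and the hepatocyte markers at -0.06.

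The size of the genotype difference rested on single livers, and its side of the threshold did not. Leaving out knockout replicate 4 brought the median difference of the markers from -0.38 to -0.17 and that of Vsig4 to -0.0050, and leaving out wild-type replicate 4 brought the median to -0.24. Without knockout replicate 2, the array that stood apart, the median was -0.51 and 0 of 10 passed. With wild-type replicate 4 left out as well it was -0.36, again with 0 of 10. All 10 differences stayed below 0 in each of these fits.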

How the data were processed

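Liver RNA of 8 mice was measured on 8 arrays, 4 per genotype. The deposited values were log2 signals, made with RMA per the submitters' processing notes, and no version, filter or batch step is given in the sources used here. They carry 2 decimals, neither detection calls nor scan dates, which leaves background and batch untested, and RMA hides a shift common to all genes. From 16556 probe sets, 64 array controls were left out. Of the rest, 15270 were named through the platform annotation and the RefSeq table by Entrez number.

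The genotype contrast was fitted in limma 3.58.1 (R 4.3.3, all 8 arrays, genotype as the only term, two-sided), with Benjamini-Hochberg adjustment over 16492 probe sets. The steps were tested on simulated data. The precision is limited by the number of arrays. Each limma p-value sets a mean difference against the spread between these animals, with the variance drawn towards that of all probe sets. The 10 markers are named whatever their value, together with the genes past the threshold or else the 3 of lowest p from each of 17 further lists (181 of 217 entries measured, the rest not analysed here) and the 8 genes most like the markers. Cd163 is in 2 lists. Where a gene had several probe sets, the brightest stood for it. The markers and lists were chosen with earlier results of these data known, so no list test is given. Correlations over arrays are descriptions. Alternatives were other subsets of arrays, a block for replicate number, array weights, other variance priors, a filter on dim probe sets, controls included, other scalings, a permutation test and named probe sets only.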

Additional observations from a re-analysis of the deposited data

Results flagged for a closer look

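Among 68 genes named, each tested in both genotypes (136 groups of 4), 10 groups held a liver far from the other 3 by Dixon's test, where chance alone gives about 1 in 20. No Kupffer cell marker was among them. Wild-type replicate 4 was high for Cd3d (6.37 against 5.73 to 5.78), Gzmb (6.81 against 5.69 to 5.76), Usp18 (9.44 against 8.16 to 8.29) and Oasl2 (7.68 against 6.37 to 6.58). The same liver was low for Hnf4a (10.79 against 10.93 to 10.95) and for Amacr (11.68 against 12.03 to 12.06). Mertk was 6.19 in wild-type replicate 1 against 6.78 to 6.83, and Csf1 was 6.83 in knockout replicate 3 against 6.93 to 6.94. Slc4a1 in wild-type replicate 3 (4.42, the others at 4.23) and Serpina1a in knockout replicate 2 (14.19, the others at 14.15) stood out from values that were equal to the second decimal.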

How the results depend on the processing

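In all 19 alternatives 0 of 10 markers passed, and all 190 differences recomputed were below 0, with adjusted p from 0.265 to 0.998. The replicate block, the other variance priors and the permutation test kept the differences of the main fit by construction. So did the filter, the added controls and the restriction to named probe sets. Those repeats are no separate check of direction, and the remaining settings share most or all of their arrays. The median difference ranged from -0.55 without knockout replicate 1 to -0.17 without knockout replicate 4, against -0.38 with all arrays. Against 19 probe sets called in all, the count was 2 to 39 when single arrays were left out, 39 with both knockout replicate 2 and wild-type replicate 4 left out, 75 with array weights and 38 after a second quantile normalization. The permutation test called 0, its smallest possible p being 0.0286 before adjustment and 0.428 after. With the replicate number as a block, the median of the markers was -0.38, 0 passed and 1 of all probe sets was called. The deviations of same-numbered arrays from their group means, over all probe sets, correlated at 0.0496, -0.0266, 0.0915 and -0.115. These values cannot tell whether livers of equal number shared a litter or a batch, which the labels do not give. With 4 livers a group and a median SE of 0.30 for a marker, differences of the size seen did not reach the threshold.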

Other observations

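Among markers of other cells, the B cell list held the largest difference. Jchain, the chain that joins the units of secreted IgA and IgM in plasma cells, was 8.10, 7.85, 7.45 and 10.53 in wild type and 6.24, 6.79, 5.85 and 5.23 in knockout (log2 difference -2.46, SE 0.63, limma adjusted p = 0.183). The groups did not overlap, which 3.25% of all probe sets did in that direction. Ms4a1 differed by -0.18 and Pax5 by 0.10, and the list's mean level was 5.82 to 6.61 in wild type and 5.30 to 5.80 in knockout. Of 5 genes 0 passed.

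Alas2, the erythroid enzyme that starts heme synthesis, was 10.24 to 10.49 in wild type and 10.71 to 11.32 in knockout (0.54, SE 0.13, limma adjusted p = 0.179), with Klf1 at -0.22 and Slc4a1 at 0.05. Among 9 genes of iron and red cell recycling, of which 0 passed, Hfe differed by 0.26, Fth1 by 0.14 and Blvrb by -0.29. Of 10 niche ligands 0 passed. The chemokine Ccl2 was 6.47 to 6.61 in wild type and 6.71 to 7.17 in knockout (0.30, SE 0.11, limma adjusted p = 0.327), and Csf2 differed by 0.16.

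No gene passed in the remaining lists. For T and NK cells the differences were 0.16 for Cd3e, -0.28 for Cd3d and -0.39 for Gzmb. The T and NK list deviated by 0.45 in wild-type replicate 4 and by -0.16 and -0.17 in knockout replicates 3 and 4. Of its 13 genes, 9 were highest in wild-type replicate 4, against 9.98% of all probe sets. In knockout replicate 4, 5 of the 13 were lowest, against 11.7%. Neutrophil genes included S100a9 at -0.53, S100a8 at -0.55 and Ngp at 0.32. Stellate cell genes included Rgs5 at 0.56, Dcn at 0.24 and Des at 0.15, and cholangiocyte genes Tspan8 at 0.83, Sox9 at 0.34 and Krt19 at 0.20. In knockout replicate 2 the stellate list deviated by 0.57 and the cholangiocyte list by 0.83. The mean level of the hepatocyte list was 14.01 to 14.04 in wild type and 13.96 to 13.98 in knockout, with single differences of -0.18 for Hnf4a, -0.10 for Ahsg and -0.06 for Serpina1a.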
